A study of Mus musculus with 8 samples.

Results

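Livers of mice given carbon tetrachloride (CCl4) together with erlotinib at 5 mg were set against livers of mice given CCl4 alone. The comparison rests on 2 arrays of each group, 4 of the 8 arrays of the study, and on the 23978 of 25697 probes that carry a gene symbol. All animals were male mice of the inbred strain A/J. The erlotinib group and the CCl4 group both received 0.1 cc of CCl4 as a 40% solution in olive oil by gavage, 3 times a week over 18 weeks, and the erlotinib group also received erlotinib. A group with CCl4 and erlotinib at 2 mg and a group given the vehicle in place of CCl4 (2 arrays each) served for the comparisons at the end. By the protocol livers were collected in week 19, after 1 week without CCl4, whereas the source label of every sample reads week 18. Neither the weight basis, route and schedule of the erlotinib doses nor the ages of the mice are stated by the labels. RNA was extracted from frozen liver outside tumours and hybridised to Illumina mouse bead arrays.

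CCl4 is turned into a toxic radical in hepatocytes, chiefly by the cytochrome P450 enzyme Cyp2e1, and repeated doses kill hepatocytes around the central vein and lead to scarring. The scar is laid down by hepatic stellate cells, which become contractile myofibroblasts marked by Acta2. Erlotinib occupies the ATP pocket of the epidermal growth factor (EGF) receptor kinase, a receptor abundant on hepatocytes whose ligands drive their growth and division, so the question posed by the design is what the liver transcriptome looks like when CCl4 is given with that kinase inhibited.

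Values below are log2 intensities after background correction and quantile normalization, on which the median probe of every array lies at 6.15. Background on an array is the 99th percentile of probes of chemosensory receptors of the nose (odorant, vomeronasal and trace amine), 6.37 to 6.45 on this scale, and 22.96% to 26.1% of probes lay above it. The pairs of arrays correlated at r = 0.987 with erlotinib 5 mg and r = 0.984 with CCl4 alone across genes, which are not independent replicates. The hepatocyte genes Ttr, Apoa1, Trf and Fga were between 11.78 and 14.19 on all 4 arrays, while the defining markers of bile duct cells (Krt7, Krt19) and B cells (Cd79a) were under background. Of the neutrophil markers Ngp was under background, and S100a8 was 6.56 and 6.34 with erlotinib (1 array above background) and 6.71 and 6.80 with CCl4. In whole tissue, fewer cells of a type and less RNA per cell cannot be told apart. Whether arrays of 1 group stem from separate animals is not stated, so p-values measure only the spread between these arrays, which may be technical. With no slide or processing date to go by, such batches and the groups cannot be told apart.

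Erlotinib at 5 mg was accompanied by a broad shift: 1003 of 11022 genes tested (9.1%) passed an adjusted p of 0.05, 487 higher (4.42%) and 516 lower (4.68%) with erlotinib than with CCl4 alone. Among them 174 differed by at least 2-fold (1.58%), 95 higher (0.862%) and 79 lower (0.717%). Genes of hepatocyte metabolism, such as P450 enzymes and enzymes of amino acid and fatty acid breakdown, were among the rises, and genes of stress signalling, protein synthesis and secretion, the cytoskeleton and inflammation were among the falls. The arrays of the groups did not overlap in any of the 1003 genes, against 5068 of all genes tested (46.0%). The 1003 were chosen by a test on these same arrays, so their separation largely follows from the choice and is no further support. The median difference over all genes tested was -0.0014. With each array scaled to a common median in place of quantile normalization, 169 genes passed, all of them among the 1003, and without CCl4 replicate 2 the count was 526. CCl4 replicate 2 lay farther than replicate 1 from the mean of the erlotinib arrays in 728 of the 1003 genes, against 5893 of all 11022.

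The largest rise was that of Hamp2, a close relative of the gene for the iron hormone hepcidin. It reached 10.10 and 11.01 on the erlotinib arrays, against 7.27 and 7.61 on the CCl4 arrays, a difference of 3.12 ± 0.26 (log2 ± SE, n = 2 arrays per group, limma adjusted p = 1.31e-06). Both erlotinib arrays were far above both CCl4 arrays, and the vehicle arrays, at 9.73 and 10.59, overlapped the erlotinib arrays. Hamp itself, the hepcidin gene, moved the other way, at 9.21 and 7.67 with erlotinib and 9.53 and 10.17 with CCl4 (a difference of -1.41 ± 0.37, adjusted p = 0.0235), a call lost under 8 alternative settings (adjusted p = 0.0641 to 0.433). Probes of this close pair may read each other's transcripts. Car3, a carbonic anhydrase abundant in hepatocytes, was 11.20 and 10.82 with erlotinib and 8.98 and 7.15 with CCl4, the second CCl4 array far below the first, for a difference of 2.94 ± 0.35 (adjusted p = 3.75e-05), a call lost with the intensity-dependent prior (adjusted p = 0.084). Inmt, an N-methyltransferase of small amines, was 12.23 and 11.51 with erlotinib and 9.83 and 8.76 with CCl4 (a difference of 2.58 ± 0.27, adjusted p = 1.47e-05). Rgs16, a brake on G protein signalling, rose by 2.75 and Aldh1l1, the folate enzyme 10-formyltetrahydrofolate dehydrogenase, by 1.86, with adjusted p-values of 2.53e-06 and 1.29e-06. Dbp, a clock output transcription factor, was 9.42 and 8.74 with erlotinib and under background with CCl4 at 6.39 and 6.21, at least 6.5-fold higher (adjusted p = 0.0013), a call lost under 3 alternative settings (adjusted p = 0.076 to 0.234). The clock repressor Nr1d1 rose by 1.65 ± 0.12 (adjusted p = 6.16e-07), and these were the 2 of 17 tested clock genes that passed. The hour at which mice were killed is not stated.

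**Figure D1:**
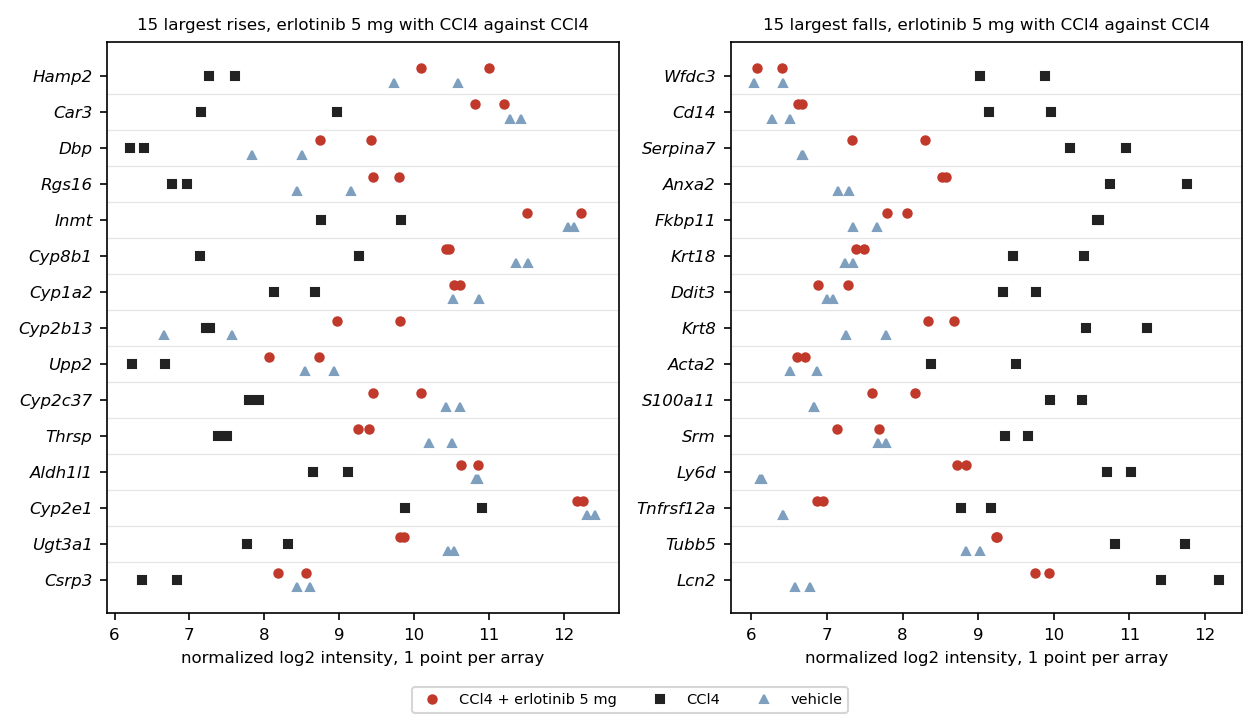
Log2 intensity (horizontal axis) on each array for the 15 largest rises and the 15 largest falls with erlotinib 5 mg against CCl4: circles, CCl4 with erlotinib 5 mg; squares, CCl4; triangles, vehicle. By the rule of choice the circles lie on one side of the squares. Hamp2 is the largest rise, at 10.10 and 11.01 with erlotinib against 7.27 and 7.61 with CCl4.

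Genes of enzymes that handle drugs and toxins were among the rises. Of 49 P450 genes tested 19 rose (38.8%, beside 4.42% of all genes), and the median difference of the 49 was 0.38. Cyp2e1, which activates CCl4, was 12.26 and 12.18 with erlotinib against 10.92 and 9.88 with CCl4, and 12.43 and 12.31 with vehicle (a difference from CCl4 of 1.82 ± 0.22, adjusted p = 4.54e-05). Both erlotinib arrays were slightly under the vehicle arrays here, and both CCl4 arrays well under them. Cyp1a2, a caffeine-metabolising enzyme of pericentral hepatocytes, was 10.62 and 10.54 with erlotinib and 8.68 and 8.13 with CCl4 (a difference of 2.17 ± 0.16, adjusted p = 6.47e-07). Cyp1a1, the inducible relative of Cyp1a2, differed by 0.19 ± 0.12 (adjusted p = 0.463). Cyp2c37 rose by 1.91, Cyp2c50 by 1.72, Cyp4f14 by 1.48, Cyp3a25 by 1.46 and Cyp3a11 by 0.75. Cyp8b1, the sterol 12-alpha-hydroxylase that sets the cholic acid share of bile acids, was 10.43 and 10.47 with erlotinib and 9.26 and 7.15 with CCl4, where the 2 arrays were far apart (a difference of 2.25 ± 0.41, adjusted p = 0.00174), a call lost with the intensity-dependent prior (adjusted p = 0.246) and with median scaling (adjusted p = 0.0601). Of 27 conjugating enzymes and carboxylesterases 11 rose, among them Ugt3a1 (1.79) and the lipase Ces1d (1.56). Members of the Cyp2c, Cyp3a, Ugt and Ces families are close in sequence, so a probe may also read a relative. The P450 count was 8 with median scaling, and that of conjugating enzymes 5 with median scaling.

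The start sites of 3 of these genes are shown for the TATA box they hold (TATAAA, searched on both strands in the 250 bases before any listed start of a gene). It was present in 7 of the 18 risen P450 genes with a promoter (38.9%), in 14.3% of all 27025 genes with one and in 11.5% of the 8887 tested. An E-box (CACGTG) was present in 1 and a GC box (GGGCGG) in 4 of the 18, against 6.86% and 35.4% of all genes. The sequences are RefSeq's for the reference strain on GRCm38.p6, not those of A/J, and show the 120 bases before the start with the TATA box in capitals. They span chr9:57683656-57683775 (minus strand) for Cyp1a2, chr9:121916306-121916425 (minus strand) for Cyp8b1 and chr7:140763699-140763818 (plus strand) for Cyp2e1, each read on the gene's own strand. The motif begins 29 bases before the start in Cyp1a2 and 31 before it in Cyp8b1 and Cyp2e1. A match of letters is a description and not a measured site.
Cyp1a2: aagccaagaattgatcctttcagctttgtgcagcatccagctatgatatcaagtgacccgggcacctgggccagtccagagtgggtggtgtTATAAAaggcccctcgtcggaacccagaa
Cyp8b1: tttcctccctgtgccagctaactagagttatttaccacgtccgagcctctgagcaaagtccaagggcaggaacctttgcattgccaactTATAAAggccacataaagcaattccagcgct
Cyp2e1: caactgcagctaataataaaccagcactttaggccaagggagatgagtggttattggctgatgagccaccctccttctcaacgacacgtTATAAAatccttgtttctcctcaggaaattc

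Genes of amino acid breakdown and of the urea cycle, in which hepatocytes turn ammonia into urea, were also among the rises. Of 44 genes 23 rose, with a median difference of 0.50. Asl, which splits argininosuccinate, was 8.70 and 8.70 with erlotinib and 7.79 and 7.26 with CCl4 (a difference of 1.17 ± 0.15, adjusted p = 5.44e-05). Other urea cycle genes rose less or did not pass. Ass1 rose by 0.70 (0.50 without CCl4 replicate 2, where the call was lost). Arg1 rose by 0.47, a call lost under 6 alternative settings, among them median scaling (adjusted p = 0.274). Cps1 did not pass (0.32 ± 0.12, adjusted p = 0.145), and Otc was under background on all 4 arrays. Afmid and Haao of tryptophan breakdown rose by 1.51 and 1.43, Prodh, which starts proline breakdown, by 1.47, and Agxt, the peroxisomal glyoxylate transaminase, by 1.19. In the folate and methionine cycles 10 of 24 genes rose, among them Mthfd1 (1.001). Genes of both ends of the liver lobule were among the rises: 10 of 19 periportal genes rose (median 0.47), as did 11 of 24 pericentral genes (median 0.45), of which 1 fell. That gene was the neutral amino acid carrier Slc1a4, at 6.92 and 6.69 with erlotinib and 7.87 and 7.86 with CCl4 (-1.06 ± 0.15, adjusted p = 1.75e-04). Albumin, the main plasma protein, was read by a dim probe at 7.15 and 7.56 with erlotinib and 6.61 and 7.04 with CCl4 (0.53 ± 0.16, adjusted p = 0.0458), a call lost under 8 alternative settings (adjusted p = 0.0671 to 0.595). The amino acid count was 14 with median scaling and 15 with an offset of 16, and the folate count 4 with median scaling and 6 without CCl4 replicate 2. The periportal count was 4 with median scaling, and the pericentral count 6 with median scaling and 6 without CCl4 replicate 2.

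Fatty acid oxidation, the burning of fat in mitochondria and peroxisomes, was another group with rises: 14 of 30 genes, median 0.37. Of 28 acyl-CoA thioesterases and other targets of the lipid sensor PPARA, 10 rose (median 0.43). Acaa1b, a peroxisomal thiolase, was 13.32 and 13.01 with erlotinib against 11.83 and 11.68 with CCl4 (1.41 ± 0.13, adjusted p = 3.42e-06). Acot1, a thioesterase that releases fatty acids from coenzyme A, rose by 1.74 ± 0.15 (adjusted p = 1.51e-06), and the medium-chain ligases Acsm5 and Acsm3 by 1.07 and 1.03. Among bile acid genes, Slc27a5, which activates bile acids before conjugation, rose by 1.09. Lpl, the lipoprotein lipase that healthy adult hepatocytes make little of, fell to 8.97 and 8.9996 with erlotinib, against 10.11 and 10.29 with CCl4 (-1.22 ± 0.15, adjusted p = 6.02e-05). Apoa4, an apolipoprotein of triglyceride export, fell by 0.96. The glycolytic enzymes Pkm, the muscle-type pyruvate kinase, and Ldha fell by 0.98 and 0.96, in a list of 32 carbohydrate genes of which 7 rose and 3 fell. Median scaling ended the calls of Lpl (adjusted p = 0.0692), Apoa4 (adjusted p = 0.115) and Ldha (adjusted p = 0.0955), and it left 3 rises in each of the fatty acid oxidation and PPARA lists. Without CCl4 replicate 2 the fatty acid oxidation count was 9.

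Genes of fat synthesis and of bile export were also among the rises. Of 23 genes of fatty acid and triglyceride synthesis 7 rose and 1 fell (median 0.28). Thrsp, a protein that drives lipid synthesis and responds to thyroid hormone, was 9.40 and 9.26 with erlotinib against 7.50 and 7.38 with CCl4 and 10.51 and 10.20 with vehicle (a difference from CCl4 of 1.88 ± 0.28, adjusted p = 2.94e-04), a call lost with the intensity-dependent prior (adjusted p = 0.123) and with median scaling (adjusted p = 0.163). Mlxipl, the carbohydrate-sensing transcription factor ChREBP, rose by 0.87, a call lost with median scaling (adjusted p = 0.146). Cholesterol synthesis gave 0 calls of 17 by limma (4 higher and 0 lower at an unadjusted p under 0.05). Of all 11022 genes tested 1977 had an unadjusted p under 0.05 in this comparison. Of 18 transporters of bile acids, sterols and anions 7 rose and 1 fell (median 0.31), including Abcc3, an export pump of conjugates, at 9.73 and 9.54 with erlotinib and 8.45 and 8.61 with CCl4 (1.11 ± 0.12, adjusted p = 1.76e-05), a call lost with median scaling (adjusted p = 0.0677). Nr1h4, the bile acid receptor FXR, rose by 1.09, a call lost with median scaling (adjusted p = 0.116). With Cebpa (0.85) it made 2 rises among 20 transcription factors of hepatocyte identity, the rise of Cebpa being a call lost with median scaling (adjusted p = 0.299) and without CCl4 replicate 2 (adjusted p = 0.052). The lipid synthesis count was 0 with median scaling, 4 with an offset of 16, 4 without CCl4 replicate 1, 4 without CCl4 replicate 2 and 4 without 5 mg replicate 2. The transporter count was 1 with median scaling and 4 without CCl4 replicate 2.

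Some genes biased towards one sex changed, of both kinds. Of 14 female-biased genes 4 rose (median 0.07), namely Hamp2, Cyp2b13, Acot3 and Cyp2b9. The rise of Acot3 was a call lost with median scaling (adjusted p = 0.058). Cyp2b13 was 8.97 and 9.82 with erlotinib, against 7.22 and 7.28 with CCl4 and 6.66 and 7.57 with vehicle (a difference from CCl4 of 2.15 ± 0.31, adjusted p = 2.15e-04), a call lost with the intensity-dependent prior (adjusted p = 0.128) and with median scaling (adjusted p = 0.105). Of 28 male-biased, growth hormone dependent genes 4 rose and 1 fell (median 0.21). Ghr, the growth hormone receptor, rose to 8.28 and 8.54 with erlotinib, against 7.41 and 7.72 with CCl4 and 9.35 and 9.33 with vehicle (a difference from CCl4 of 0.85 ± 0.14, adjusted p = 7.36e-04), a call lost with median scaling (adjusted p = 0.335). Both erlotinib arrays of Ghr lay between the CCl4 and the vehicle arrays. The male-biased gene that fell was Gstp1, a glutathione S-transferase, at 12.81 and 12.43 with erlotinib and 13.76 and 13.56 with CCl4 (-1.05 ± 0.14, adjusted p = 1.13e-04), a call lost with median scaling (adjusted p = 0.115). Of all 21 glutathione S-transferases tested 5 rose and 2 fell. The female-biased count was 2 with the intensity-dependent prior and 1 with median scaling. The male-biased count was 0 with median scaling and 2 without 5 mg replicate 1.

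Genes of plasma proteins and of the respiratory chain rose in part. Of 36 complement and coagulation genes, 14 rose (median 0.38), with Klkb1, plasma prekallikrein, at 1.33 and F13b, a coagulation factor XIII subunit, at 0.995. The 2 members that fell were the fibrinogen chains Fga (-0.44), a call lost under 5 alternative settings (adjusted p = 0.109 to 0.845), and Fgg (-0.42), a call lost under 7 alternative settings (adjusted p = 0.0618 to 0.765). Of 65 subunits of oxidative phosphorylation 11 rose, with a median of 0.19 and the largest rise in Ndufb3 (0.63), a call lost with median scaling (adjusted p = 0.319). The complement and coagulation count was 2 with median scaling, 8 with an offset of 16, 7 without CCl4 replicate 2 and 9 without 5 mg replicate 2. The oxidative phosphorylation count was 0 with median scaling, 2 with an offset of 16, 6 without CCl4 replicate 1, 5 without CCl4 replicate 2, 6 without 5 mg replicate 1 and 2 without 5 mg replicate 2.

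**Figure D2:**
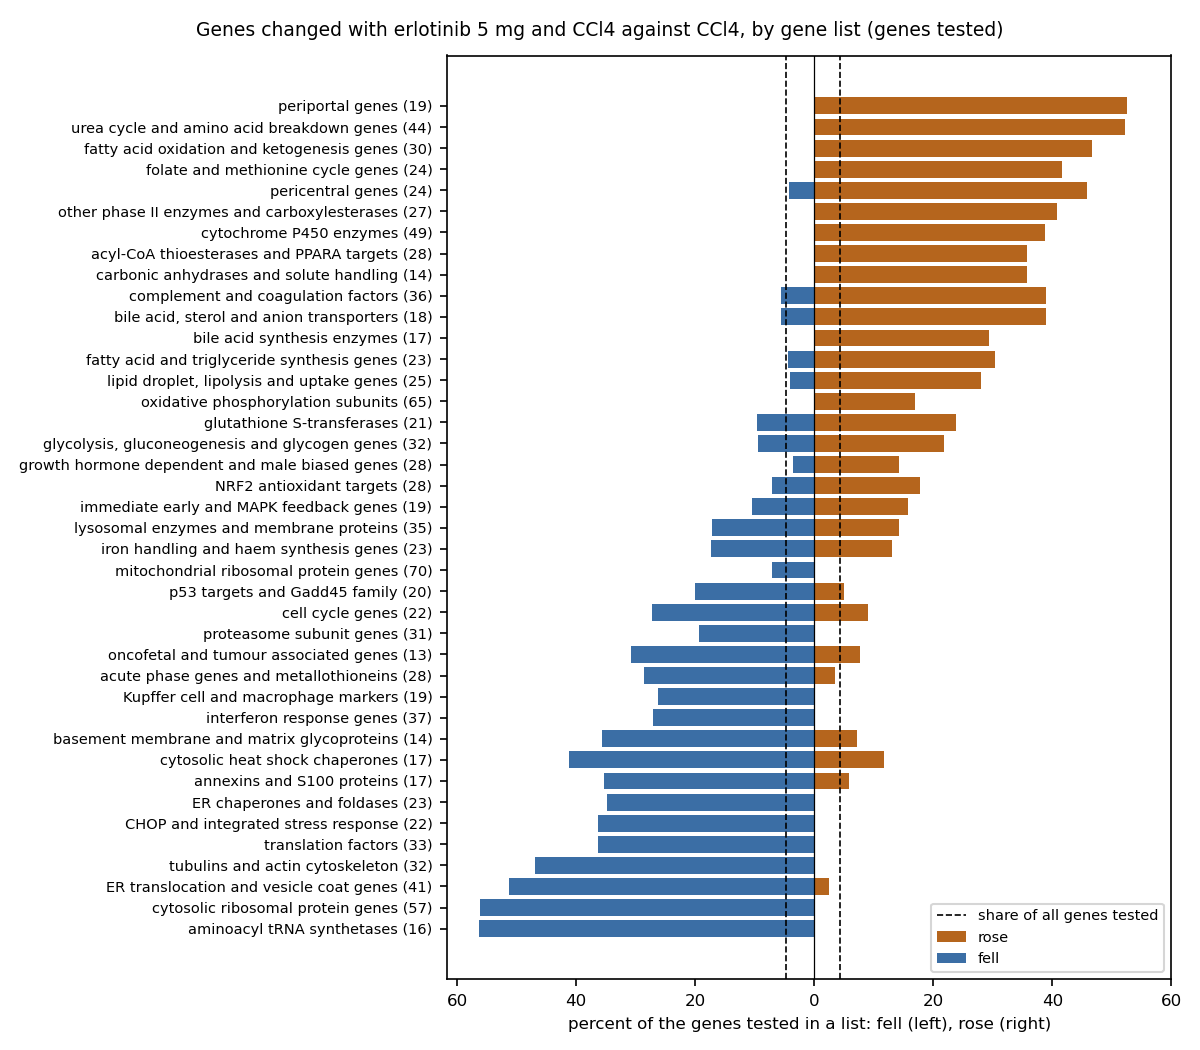
Percent of the tested genes of each list that fell (left) or rose (right) with erlotinib 5 mg against CCl4, for the 40 lists with at least 5 such genes; dashed lines mark the share of all genes tested, 4.68% lower and 4.42% higher. Ribosomal, secretory and cytoskeletal lists extend to the left, and amino acid, P450 and fatty acid oxidation lists to the right.

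Genes of stress signalling were among the falls. Of 22 genes of the integrated stress response, the programme by which a cell limits protein synthesis under stress, 8 fell (36.4%, beside 4.68% of all genes), with a median of -0.28. Ddit3, which encodes the death-promoting factor CHOP, fell to 7.28 and 6.88 with erlotinib, against 9.33 and 9.77 with CCl4 and 7.08 and 6.999 with vehicle (a difference from CCl4 of -2.47 ± 0.15, adjusted p = 1.86e-07). The stress factor Nupr1 was 6.63 and 6.55 with erlotinib and 8.39 and 8.14 with CCl4 (-1.67 ± 0.14, adjusted p = 1.31e-06), and the stress transcription factor Atf3, under background with erlotinib, was at least 1.49-fold lower (adjusted p = 0.00135). Both CCl4 arrays were above both erlotinib arrays in each of these genes. A second, dimmer probe of Ddit3 read -0.33. The stress response count was 3 with median scaling, 5 with no background correction, 5 with an offset of 16, 4 with the authors' normalized values, 3 without CCl4 replicate 2, 4 without 5 mg replicate 1 and 3 without 5 mg replicate 2.

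Genes of the secretory machinery of the endoplasmic reticulum (ER) fell as well. Fkbp11, a prolyl isomerase of the ER, was 8.06 and 7.79 with erlotinib and 10.60 and 10.57 with CCl4, where the arrays were nearly equal (-2.66 ± 0.13, adjusted p = 1.22e-08). Of 23 ER chaperones and foldases 8 fell (median -0.24), among them Creld2 (-1.49), the HSP90 family chaperone Hsp90b1 (-0.93), the disulfide isomerases Pdia4 (-0.75) and P4hb (-0.74), and the co-chaperone Dnajc3 (-0.78). Hspa5, the main ER chaperone, was read by a probe under background on all 4 arrays (-0.15 ± 0.12, adjusted p = 0.628). Of 41 genes of ER translocation and vesicle coats 21 fell and 1 rose (median -0.40), with the translocon subunits Ssr2 and Sec61a1 at -1.30 and -1.24. Median scaling ended the calls of Creld2 (adjusted p = 0.0897), Hsp90b1 (adjusted p = 0.121), Pdia4 (adjusted p = 0.154), P4hb (adjusted p = 0.163) and Dnajc3 (adjusted p = 0.106), and it left 1 chaperone and 5 translocation genes.

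Of the fallen chaperone genes, 3 carry the ER stress element in their promoters, and these stretches are shown with the element in capitals and 30 bases on each side. The motif, CCAAT and CCACG with any 9 bases between them, on either strand, was added to the search after the falls had been seen. It was present in 3 of the 8 fallen chaperone genes with a promoter (37.5%), in 14 of the 8887 tested genes with one (0.158%) and in 35 of all 27025 (0.13%). The windows are chr15:88819490-88819568 (plus strand) for Creld2, chr10:86705503-86705686 (minus strand) for Hsp90b1, which holds the element once in each orientation, and chr14:118937797-118937875 (plus strand) for Dnajc3, again RefSeq's GRCm38.p6 reference. No binding was measured here.
Creld2: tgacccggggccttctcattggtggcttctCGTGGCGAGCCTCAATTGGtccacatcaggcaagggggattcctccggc
Hsp90b1: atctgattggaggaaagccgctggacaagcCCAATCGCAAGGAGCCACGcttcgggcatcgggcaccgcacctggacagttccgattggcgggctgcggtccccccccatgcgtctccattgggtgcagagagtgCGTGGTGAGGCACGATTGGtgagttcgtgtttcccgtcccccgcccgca
Dnajc3: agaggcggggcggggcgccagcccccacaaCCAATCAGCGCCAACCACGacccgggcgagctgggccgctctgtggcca

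Of all lists, the ribosomal one held the most falls. Of 57 cytosolic ribosomal protein genes 32 fell, with a median of -0.51. Rpl3 was 9.72 and 9.86 with erlotinib and 10.53 and 10.91 with CCl4 (-0.93 ± 0.13, adjusted p = 2.17e-04), and Rpl12 fell by 0.92. The differences within the list ran from -0.93 to 0.30, and Rps2 (-0.33, adjusted p = 0.0929) did not pass. Of 33 translation factors 12 fell, including the ribosome assembly factor Eif6 (-1.17) and the elongation factor subunit Eef1g (-1.02). Of 16 aminoacyl tRNA synthetases, which charge tRNAs, 9 fell, with Gars at -0.97. Srm, the spermidine synthase, fell to 7.69 and 7.14 with erlotinib, against 9.35 and 9.66 with CCl4 (-2.09 ± 0.16, adjusted p = 9.13e-07). Median scaling ended the calls of Rpl3 (adjusted p = 0.146), Rpl12 (adjusted p = 0.0561), Eef1g (adjusted p = 0.183) and Gars (adjusted p = 0.116). The ribosomal count was 0 with median scaling, 17 with an offset of 16, 21 without CCl4 replicate 2 and 20 without 5 mg replicate 2, with a median of -0.38 in the first of these. The translation factor count was 1 with median scaling, 4 with an offset of 16, 7 without CCl4 replicate 2 and 5 without 5 mg replicate 2, and the synthetase count 0 with median scaling, 4 with an offset of 16, 5 without CCl4 replicate 2 and 4 without 5 mg replicate 1.

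Further protein quality and defence lists showed fewer calls or calls in both directions. Of 17 cytosolic heat shock genes 7 fell and 2 rose (median -0.33), among them Hspa9, a mitochondrial chaperone of the HSP70 family, at -0.77, a call lost under 3 alternative settings (adjusted p = 0.0515 to 0.54). Of 31 proteasome genes 6 fell (median -0.19), with Psme3, a proteasome activator, at -0.66, a call lost with median scaling (adjusted p = 0.115). Of 70 mitochondrial ribosomal protein genes 5 fell (7.14%, near the 4.68% of all genes, median -0.04), with Mrps18b at -0.93, a call lost with median scaling (adjusted p = 0.0561). Of 28 acute phase genes and metallothioneins 8 fell and 1 rose, with Fgl1, a secreted relative of fibrinogen, at 8.98 and 9.46 with erlotinib and 10.04 and 10.54 with CCl4 (-1.07 ± 0.18, adjusted p = 8.43e-04), a call lost with median scaling (adjusted p = 0.116). Of 28 antioxidant targets of NRF2, 5 rose and 2 fell, the largest rise being catalase (Cat) at 1.17, a call lost under 5 alternative settings (adjusted p = 0.0514 to 0.149). Of 23 genes of iron and haem 3 rose and 4 fell, with Alas1, the first enzyme of haem synthesis, at -1.22, a call lost under 9 alternative settings (adjusted p = 0.0651 to 0.52). Of 20 p53 targets 4 fell and 1 rose, with the cell cycle inhibitor Cdkn1a at 7.60 and 7.50 with erlotinib, 8.27 and 8.62 with CCl4 and 6.44 and 6.45 with vehicle (a difference from CCl4 of -0.89 ± 0.18, adjusted p = 0.00295), a call lost without CCl4 replicate 2 (adjusted p = 0.0618). Antigen presentation gave 0 calls of 18 by limma (0 higher and 2 lower at an unadjusted p under 0.05, beside 1977 of all 11022 genes in either direction). The heat shock count was 4 with the mean of the probes, 0 with median scaling, 4 with no background correction, 2 with an offset of 16, 4 with the authors' normalized values, 0 without CCl4 replicate 2, 2 without 5 mg replicate 1 and 2 without 5 mg replicate 2. The proteasome count was 0 with median scaling, 1 with an offset of 16, 1 without CCl4 replicate 2, 3 without 5 mg replicate 1 and 2 without 5 mg replicate 2. The acute phase count was 2 with median scaling, 5 with an offset of 16, 4 without CCl4 replicate 2 and 4 without 5 mg replicate 1.

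Cytoskeletal genes were among the falls. Of 32 tubulin and actin genes 15 fell (median -0.40), and no alternative setting moved that count by more than 1.5 times. Tubb5, a beta-tubulin, was 9.24 and 9.24 with erlotinib and 10.81 and 11.74 with CCl4 (-2.04 ± 0.20, adjusted p = 6.89e-06), while a second probe, under background, read -0.06. Tropomyosin Tpm1 fell by 1.60. The keratins of hepatocytes, Krt8 and Krt18, pair into filaments. Krt8 was 8.69 and 8.34 with erlotinib and 10.43 and 11.23 with CCl4 (-2.32 ± 0.23, adjusted p = 6.89e-06). Krt18 was 7.49 and 7.38 with erlotinib and 9.47 and 10.40 with CCl4 (-2.50 ± 0.22, adjusted p = 2.52e-06). They were 2 of the 3 ductular markers of 13 that fell, while the duct keratins Krt7 and Krt19 were under background on all 4 arrays. The summed intensity of the 13 was 1.572e+04 and 1.555e+04 with erlotinib and 1.689e+04 and 1.843e+04 with CCl4. That sum includes Krt8 and Krt18, which hepatocytes make, so it is not a level of duct cells. With erlotinib these 2 keratins were only a small part of the sum, and the members that held most of it are not given here. The median difference of the 13 was -0.07. Anxa2, a calcium-dependent membrane binder, was 8.58 and 8.53 with erlotinib and 10.74 and 11.76 with CCl4 (-2.70 ± 0.25, adjusted p = 3.82e-06). It led 6 falls among 17 annexins and S100 proteins, with S100a11 (-2.28), Anxa5 (-1.55) and Anxa3 (-1.01), and 1 rise, S100a1 (0.90), a call lost with median scaling (adjusted p = 0.095).

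Some injury and tumour-associated genes were among the largest falls. Of 13 oncofetal and tumour-associated genes 4 fell and 1 rose (median -0.12). The rise was that of Axin2, a call lost with median scaling (adjusted p = 0.165). Lcn2, the siderophore binder lipocalin 2, was 9.75 and 9.94 with erlotinib and 11.42 and 12.18 with CCl4 (-1.96 ± 0.25, adjusted p = 6.86e-05). Ly6d, a surface protein of the Ly6 family, was 8.71 and 8.84 with erlotinib and 10.70 and 11.03 with CCl4 (-2.09 ± 0.16, adjusted p = 6.59e-07). Tnfrsf12a, the receptor for the cytokine TWEAK, fell by 2.06, and the tetraspanin Cd63 by 1.59. Tnfrsf12a was the 1 call among 18 NF-kB and TNF family genes (5.56%, near the 4.68% of all genes). In Lcn2, Ly6d, Tnfrsf12a and Cd63 the erlotinib arrays lay below the CCl4 arrays. Wfdc3, a WAP-domain protein, gave the largest fall, to 6.41 and 6.07 with erlotinib (1 of the 2 arrays above background), against 9.03 and 9.89 with CCl4 (-3.22 ± 0.21, adjusted p = 2.08e-07). Serpina7, which carries thyroid hormone in plasma, fell by 2.77, in a list of 12 serpins of which 2 rose and 2 fell. Gpc3, a marker of liver tumours, differed by 0.14 ± 0.13 (adjusted p = 0.707), and Afp was under background.

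Of the genes of scar formation, some passed, while the fibrillar and type VI collagens did not. Acta2, smooth muscle actin, fell to 6.60 and 6.71 with erlotinib, against 8.38 and 9.50 with CCl4 (-2.29 ± 0.27, adjusted p = 3.75e-05), a call lost with the intensity-dependent prior (adjusted p = 0.0674). Its other probes read -0.70, -0.22 and 0.03. Timp1, an inhibitor of matrix-degrading proteases, was 6.45 and 6.36 with erlotinib and 7.48 and 7.80 with CCl4 (-1.24 ± 0.14, adjusted p = 2.25e-05). Nid1, a basement membrane linker, was 6.32 and 6.44 with erlotinib and 7.06 and 7.56 with CCl4 (-0.93 ± 0.14, adjusted p = 3.49e-04), in a basement membrane list of 14 with 5 falls and 1 rise. The falls included the type IV collagen chains Col4a1 (-0.76), a call lost with median scaling (adjusted p = 0.129), and Col4a2 (-0.60), a call lost under 3 alternative settings (adjusted p = 0.0982 to 0.185). The rise was that of Col18a1, the source of endostatin, at 0.70, a call lost with median scaling (adjusted p = 0.0961) and without CCl4 replicate 2 (adjusted p = 0.0542). The matrix crosslinker Tgm2 and the growth factor Ccn2 fell by 1.41 and 1.25. Of 6 fibrillar and type VI collagens 0 passed by limma (2 lower at an unadjusted p under 0.05, median -0.02). At that unadjusted level there were 1977 of all 11022 genes in either direction. Col1a1 was 6.62 and 6.25 with erlotinib and 6.86 and 6.83 with CCl4 (-0.41 ± 0.13, adjusted p = 0.0624), and passed without 5 mg replicate 1 (adjusted p = 0.0203), while Col3a1 was under background. Of 18 stellate and myofibroblast markers the falls were Acta2 and Vim (-0.53), a call lost under 3 alternative settings (adjusted p = 0.0898 to 0.164), with Pdgfrb under background. The linear intensity summed over the 18 markers was 2875 and 3107 with erlotinib and 3335 and 3859 with CCl4. Tgfb1, the main profibrotic cytokine, differed by -0.26 ± 0.12 (adjusted p = 0.245). Median scaling ended the calls of Tgm2 (adjusted p = 0.193) and Ccn2 (adjusted p = 0.164) and left 1 fall in the basement membrane list.

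**Figure D3:**
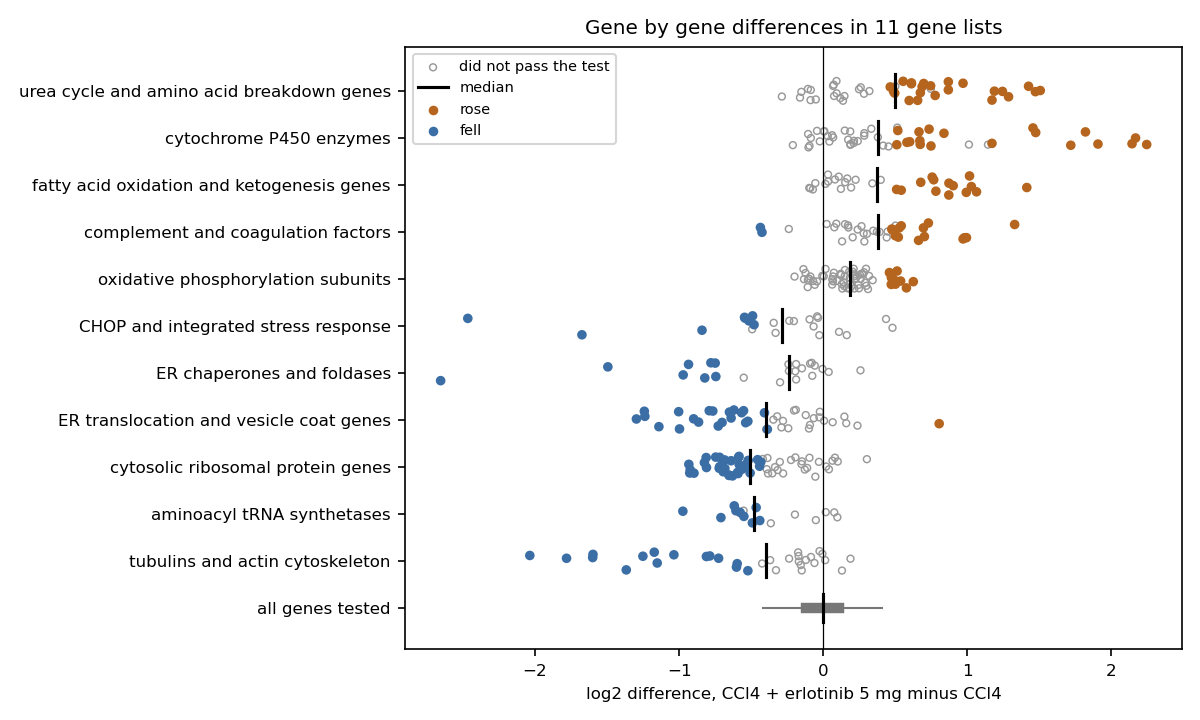
Difference in log2 between CCl4 with erlotinib 5 mg and CCl4 (horizontal axis) for each tested gene of 11 lists; the last row gives all genes tested (thin line, 5th to 95th percentile, -0.42 to 0.411; thick line, 25th to 75th percentile; tick, median). Ribosomal and cytoskeletal genes sit mostly left of 0, P450 and amino acid genes mostly right of it.

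Some macrophage and interferon genes fell. Cd14, the lipopolysaccharide co-receptor, which hepatocytes also make, fell to 6.62 and 6.67 with erlotinib, against 9.15 and 9.96 with CCl4 (-2.91 ± 0.20, adjusted p = 3.61e-07). Of 19 Kupffer cell and macrophage markers 5 fell, with Lgals3, a galectin of activated macrophages, under background with erlotinib and at least 2.17-fold lower (adjusted p = 1.93e-05) and the tetraspanin Cd9 at -1.15. The summed intensity of the 19 was 4332 and 4318 with erlotinib and 6501 and 6361 with CCl4. The part of a changed share of these cell types in the falls was not tested. The defining Kupffer cell markers Clec4f and Vsig4 were above background on all 4 arrays and did not pass, at 8.01 and 7.997 with erlotinib against 8.17 and 7.89 with CCl4 for Clec4f. Of 37 interferon response genes 10 fell (median -0.18), among them Isg15, a ubiquitin-like modifier, at 6.59 and 6.74 with erlotinib and 7.82 and 7.88 with CCl4 (-1.18 ± 0.15, adjusted p = 6.80e-05), and the antiviral enzyme Rsad2 (-0.78). The neutrophil attractant Cxcl1 rose by 1.03, a call lost with median scaling (adjusted p = 0.0622). T and NK cell markers gave 0 calls of 11 by limma (1 higher and 1 lower at an unadjusted p under 0.05, beside 1977 of all 11022 genes). Of 27 endothelial markers 1 fell (3.70%, near the 4.68% of all genes). It was the capillary protein Plvap (-0.86), a call lost with median scaling (adjusted p = 0.0631). The interferon count was 3 with median scaling, 4 with an offset of 16, 6 with the authors' normalized values, 5 without CCl4 replicate 1, 6 without CCl4 replicate 2, 4 without 5 mg replicate 1 and 5 without 5 mg replicate 2, and the macrophage count 3 with median scaling and 3 with an offset of 16.

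Of 12 tested genes of the EGF receptor family and its ligands, 1 passed the test (8.33%, near the 9.1% of all genes). Egfr was 8.09 and 8.11 with erlotinib and 7.84 and 8.77 with CCl4, the CCl4 arrays on both sides of the erlotinib arrays (-0.20 ± 0.24, adjusted p = 0.785). Its other probes read 0.35 and 0.27, both above background on all 8 arrays, and -0.04, and none of them passed. The 1 gene of the family that passed was the ligand Nrg1, at 6.54 and 6.36 with erlotinib and 7.03 and 7.20 with CCl4 (-0.66 ± 0.12, adjusted p = 0.0019). Erbb2, Erbb3 and Areg have no probe with a symbol, and Egf and Tgfa were under background. The feedback inhibitor Errfi1 differed by -0.18 ± 0.18 (adjusted p = 0.736). Dusp6, a phosphatase induced by MAPK signalling, was 8.19 and 8.33 with erlotinib and 8.23 and 9.63 with CCl4 (-0.67 ± 0.27, adjusted p = 0.185), and passed without CCl4 replicate 1 (adjusted p = 2e-05). Egr1, an immediate early factor, differed by 0.41 ± 0.12 (adjusted p = 0.0516) and passed with the filter on background (adjusted p = 0.0481). Ccnd1, the cyclin that starts the cell cycle, fell to 9.77 and 8.86 with erlotinib, against 11.48 and 10.93 with CCl4 (-1.90 ± 0.22, adjusted p = 2.95e-05). Of 22 cell cycle genes 6 fell and 2 rose, the rises being Cdc20 and Birc5. Cdc20 was under background on both CCl4 arrays and at least 1.44-fold higher with erlotinib, a call lost with median scaling (adjusted p = 0.085). Birc5 rose by 0.54, a call lost under 8 alternative settings (adjusted p = 0.0574 to 0.172). Among 19 immediate early genes, Junb (0.56), Dusp1 (0.71) and Zfp36 (0.47) rose and Atf3 and Ier3 fell. The rise of Junb was a call lost under 3 alternative settings (adjusted p = 0.0607 to 0.334). That of Dusp1 was a call lost under 4 alternative settings (adjusted p = 0.0567 to 0.176), and that of Zfp36 was a call lost under 5 alternative settings (adjusted p = 0.0817 to 0.612). The fall of Ier3 was a call lost under 4 alternative settings (adjusted p = 0.0623 to 0.211).

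Against vehicle, the erlotinib livers differed in 209 of 11022 genes (1.9%), 129 higher (1.17%) and 80 lower (0.726%). The comparison shares the erlotinib arrays with the one above. Several genes that fell against CCl4 were higher than in vehicle. Lcn2 was 9.75 and 9.94 with erlotinib and 6.78 and 6.58 with vehicle (3.17 ± 0.25, adjusted p = 1.53e-06), and Ly6d was at least 5.08-fold higher than in vehicle livers, where it was under background (adjusted p = 5.85e-08). Cd63, Lpl and Apoa4 were higher by 1.75, 1.75 and 2.01, with adjusted p-values of 3.34e-07, 4.02e-06 and 3.77e-06.

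Male-biased, growth hormone dependent genes were among those lower than in vehicle, 11 of 28 tested, beside 0.726% of all genes. Hsd3b5, a steroid dehydrogenase of male liver, was under background with erlotinib at 5.88 and 6.20, against 10.32 and 9.77 with vehicle, at least 12.6-fold lower (adjusted p = 8.48e-10), and it lay at 6.03 and 6.32 with CCl4. Cyp7b1, an oxysterol hydroxylase, differed by -3.19 ± 0.17 (adjusted p = 1.71e-08), and the elongase Elovl3 was at least 2.19-fold lower (adjusted p = 3.77e-06). All 5 tested major urinary protein genes, which encode male pheromone carriers, were lower than in vehicle, Mup20 at 7.81 and 7.23 with erlotinib against 10.18 and 9.85 with vehicle (-2.50 ± 0.28, adjusted p = 5.60e-05), a call lost with the intensity-dependent prior (adjusted p = 0.145) and with median scaling (adjusted p = 0.0642). The difference of Mup2 from vehicle was a call lost with the intensity-dependent prior (adjusted p = 0.253) and with median scaling (adjusted p = 0.126). That of Mup6 was lost with the same prior (adjusted p = 0.182) and with median scaling (adjusted p = 0.0773). That of Mup21 was lost with the same prior (adjusted p = 0.0594) and that of Mup5 under 3 alternative settings (adjusted p = 0.055 to 0.106). With CCl4 alone Mup20 was 6.79 and 6.74 and Cyp7b1 7.68 and 7.34, both also under the vehicle arrays. Against CCl4 0 of the 5 Mup genes passed (median 0.75). The Mup genes are nearly identical, and their probes cannot be assigned to 1 member with certainty. Egfr was 8.09 and 8.11 with erlotinib and 9.77 and 9.52 with vehicle (-1.54 ± 0.24, adjusted p = 0.00179), a call lost under 4 alternative settings (adjusted p = 0.0584 to 0.408). Against vehicle 0 of 57 ribosomal protein genes passed by limma (11 higher and 2 lower at an unadjusted p under 0.05, median 0.14), and 0 of 22 stress response genes (3 higher and 1 lower unadjusted). The share of all genes at that unadjusted level against vehicle is not given here. The count of 209 was 34 with median scaling, 104 with an offset of 16, 106 with the authors' normalized values and 78 without vehicle replicate 1.

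**Figure D4:**
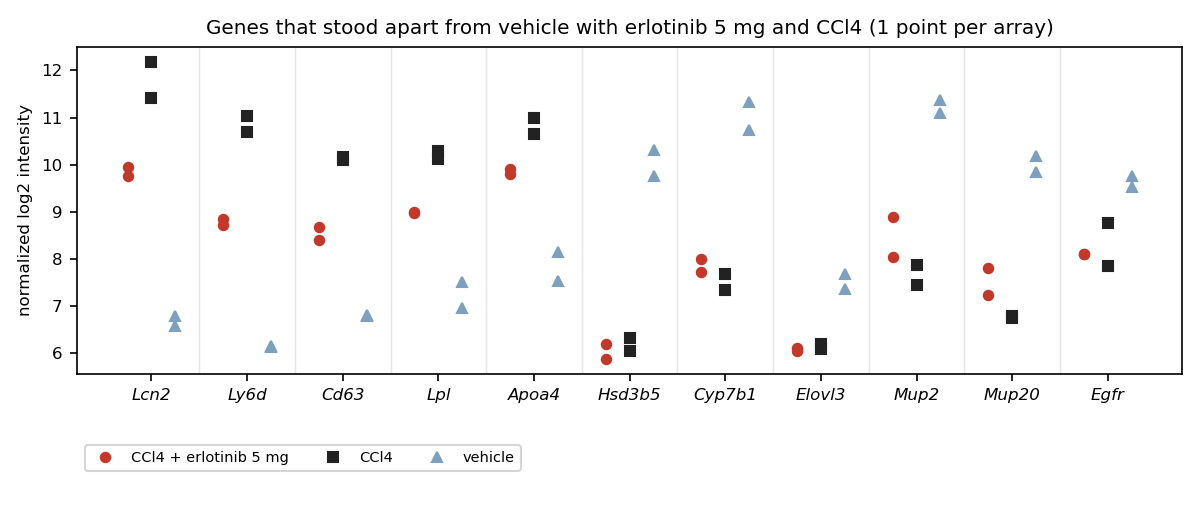
Log2 intensity (vertical axis) on each array for 11 genes that differed between CCl4 with erlotinib 5 mg (circles) and vehicle (triangles), with CCl4 (squares). Lcn2 and Ly6d lie between vehicle and CCl4, and Hsd3b5 is under background with and without erlotinib after CCl4.

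Between the doses, 5 mg against 2 mg with CCl4, the test called 2 genes of 11022 (0.0181%). An unadjusted p under 0.05 was found for 503, a share of the genes tested under the 0.05 expected with no difference between the doses. Both called genes are targets of PPARA. Acot1 was 8.69 and 8.93 with vehicle, 8.02 and 7.67 with CCl4 alone, 8.48 and 8.77 with 2 mg and 9.68 and 9.49 with 5 mg (5 mg minus 2 mg, 0.96, adjusted p = 0.0428). Cyp4a31, a fatty acid omega-hydroxylase, was 9.02 and 8.93 with vehicle, 8.65 and 8.41 with CCl4 alone, 9.09 and 9.005 with 2 mg and 10.05 and 9.74 with 5 mg (5 mg minus 2 mg, 0.85, adjusted p = 0.0428). Both 5 mg arrays were above both 2 mg arrays in each gene. The 2 calls ended with median scaling, with the authors' normalized values (adjusted p = 0.319 for both) and under most other alternatives. Acaa1b, which rose against CCl4, was 13.29 and 13.08 with 2 mg and 13.32 and 13.01 with 5 mg. Cyp2e1 was 12.07 and 12.37 with 2 mg and 12.26 and 12.18 with 5 mg.

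**Figure D5:**
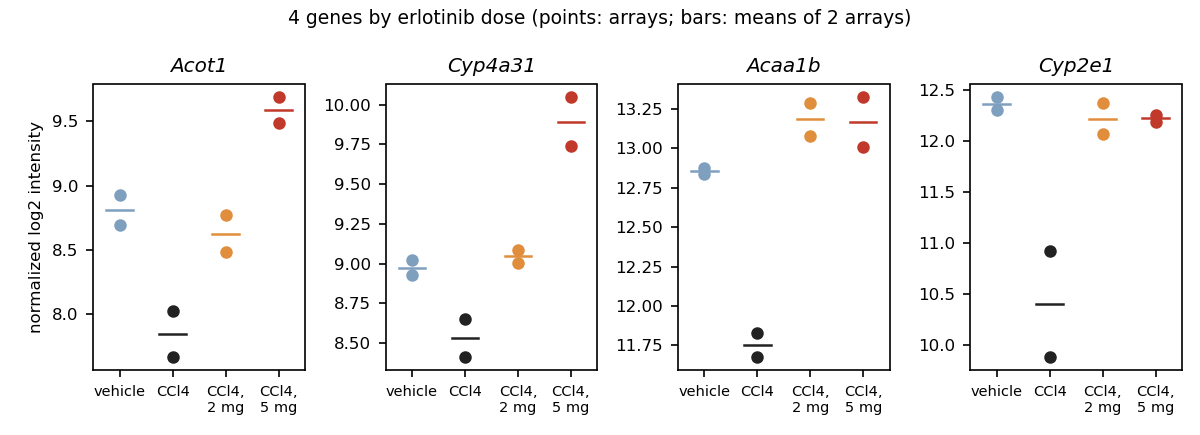
Log2 intensity (vertical axis) of Acot1, Cyp4a31, Acaa1b and Cyp2e1 on each array, from left to right for vehicle, CCl4 alone and CCl4 with 2 mg and with 5 mg of erlotinib. Acot1 and Cyp4a31 are higher on both 5 mg arrays than on both 2 mg arrays, and Cyp2e1 is near its vehicle level with either dose.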

How the data were processed

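Total RNA from 8 liver samples was measured on Illumina mouse bead arrays. The deposited non-normalized table holds the linear intensity of 25697 probes per array, with no background subtraction visible and median values of 99.8 to 130; the software behind it is not stated in the file headers. A separate deposited table of intensity, which the authors normalized in a way they do not state, served as an alternative. From the first table, limma (version 3.58.1 in R 4.3.3) gave normexp background correction (offset 50), quantile normalization and log2 values of the deposited intensities. The 15418 probes with 1 gene symbol and a mean log2 above the 40th percentile were used, and the brightest probe stood for each of 11022 genes. Arrays limit the precision through their number.

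One limma model (lmFit, eBayes) over all 8 arrays (4 residual and 11.9 prior degrees of freedom) gave the contrasts, with Benjamini-Hochberg adjustment over all genes and an adjusted p of 0.05 as threshold. "At least N-fold" is used where every array of one group is under background. On simulated data the fit recovered 100% of 200 changed genes with a log2 change of 1 or 2 among 11022, with 7.83% of its calls false. The simulated noise was normal, independent between genes and arrays, and had the spread of the fit, with no batch effect. The real calls had a median absolute log2 of 0.64. The simulation thus checks the code, and its rates cannot be carried over to these arrays. Of 548 receptor genes tested, 0 were called between erlotinib 5 mg and CCl4. The probes of these receptors also set the background, so nearly all lie under it. Their result therefore cannot show how many calls are false among brighter genes.

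The members, the 63 gene lists and the rule for named genes were chosen with earlier results of these data known. The rule took the 15 largest rises and falls, up to 3 called members per list and direction, genes called between the doses and a fixed set, 192 genes in all, of which a part is described. Cyp2b9, Cyp2c50, Cyp4f14, Cyp3a25, Ass1, Arg1, Cps1, Otc, Hsp90b1, Pdia4, P4hb, Dnajc3, Hspa5, Anxa3, Rps2, Cyp7b1, Elovl3, Mup2, Mup5, Mup6, Mup20, Mup21, S100a8 and Actb, all list members, were chosen after their values were seen. The fits were repeated with an offset of 16, with no background correction, with median scaling, with the values normalized by the authors, with no filter, a filter on probes above background on at least 2 arrays, array weights, an intensity-dependent robust prior, the mean over each gene's probes, only the compared groups and each array left out. Detection p-values and slides are not in the files, so no alternative used them. Promoter sequences come from RefSeq (GRCm38.p6).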

Additional observations from a re-analysis of the deposited data

Results flagged for a closer look

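Between the doses, Acot1 was 0.959 higher and Cyp4a31 0.848 higher in log2 with erlotinib 5 mg than with 2 mg, drawing attention as the genes for which the difference between doses itself passed the test (limma adjusted p = 0.0428 for each). A second probe of Acot1 read 0.84 for 5 mg against CCl4, which is a different comparison from that between the doses. With the mean over each gene's probes, 0 genes passed between the doses.

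Probes without a gene symbol are outside the comparisons above. Of 980 such probes bright enough to test, 74 differed between erlotinib 5 mg and CCl4, 34 higher and 40 lower. Among genes with a symbol it was 1003 of 11022 (9.1%), so these probes do not stand out by their count.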

How the results depend on the processing

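Against CCl4, 1003 genes passed; with median scaling 169 did (72 higher and 97 lower), with an offset of 16 586, and with 1 array left out 526 to 934, the lowest without CCl4 replicate 2. Other alternatives gave 868 to 1006. Against vehicle, 209 passed; median scaling gave 34, an offset of 16 gave 104, the authors' normalized values 106, and leaving out an array 78 to 129. Between the doses, 2 passed; 0 did with the authors' normalized values, median scaling, no background correction, an offset of 16, the mean of the probes, only the compared groups or the filter on background, 4 with the intensity-dependent prior, 5 with no filter and 0 to 7 with an array left out. The cause was not tested, and a lone array left in a group is assumed to vary like the others. All 176 named genes that passed kept their direction wherever they were tested, and 72 (median scaling) to 176 (array weights) still passed. No paired analysis was possible because the labels give no replicate numbers that groups share. With 2 arrays per group and about 1 in 4 probes above background, the signal limits what can be said of dim genes, and 4400 of the 11022 genes tested were under background on every array.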

Other observations

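Actb, whose product is the cytoskeletal beta-actin and which was singled out after its values were seen, was read by 5 probes that disagreed, with differences between erlotinib 5 mg and CCl4 of -0.42, 1.54, -1.36, -0.49 and 1.26 in log2.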
